A study of Mus musculus with 6 samples.

Results

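Transcript levels of 5 genes that set the sodium, potassium and chloride gradients of neurons were examined in primary mouse neurons after CRISPR activation of *Kcna1*. They are the sodium pump beta subunit genes *Atp1b1*, *Atp1b2* and *Atp1b3* and the chloride cotransporter genes *Slc12a2* and *Slc12a5*, taken by symbol from the 50508 genes listed in each of the 6 libraries, and all 5 were found. The study compared 3 libraries of neurons carrying a guide against the *Kcna1* promoter (labelled sgKcna1, here Kcna1-dCas9A) with 3 libraries carrying a guide against the bacterial LacZ sequence (labelled sgLacZ, here Ctrl-dCas9A). The comparison addresses how specific the activating guide was for its target.

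Both groups received a lentivirus with a nuclease-dead Cas9 fused to the activator VP160 under the Ef1alpha promoter, so that only the guide differed between them. That promoter is active in most cell types and not only in neurons, and the cultures were transduced on their first day *in vitro*. The neurons were prepared from newborn C57Bl/6J pups. Whereas the sample labels name hippocampus, the methods of the study name cortex, and its methods also give more than one culture age for the sequenced RNA. The methods speak of at least 3 independent repeats for the study in general, but do not say whether the sequenced libraries of a group came from separate cultures, so p-values measure the spread between these libraries, which may be technical.

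The sodium pump is an ATP-driven enzyme of the plasma membrane that exports sodium and imports potassium. Its alpha subunit carries out the transport, and its beta subunit is needed for the alpha subunit to fold and reach the cell surface. Beta1 (*Atp1b1*) is the usual partner in neurons, beta2 (*Atp1b2*) was first described as an adhesion molecule on glia, and beta3 (*Atp1b3*) is found in many tissues. The cotransporters use the gradients of the pump to move chloride. *Slc12a2* encodes NKCC1, which brings chloride into the cell, and *Slc12a5* encodes KCC2, a neuron-specific transporter that carries chloride out. As neurons mature, KCC2 increases, intracellular chloride falls and GABA turns from a depolarizing into an inhibitory transmitter.

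The RefSeq annotation of GRCm38.p6, the mm10 build that the submitters' processing notes name, places *Atp1b1* on chromosome 1 from 164437099 to 164458355, *Atp1b2* on chromosome 11 from 69599728 to 69605978 and *Atp1b3* on chromosome 9 from 96332655 to 96364431. *Slc12a5* lies on chromosome 2 from 164960846 to 164999731. The 150 bases before the most upstream start that RefSeq lists were taken for 3 of the 5 genes, on the strand of the gene and 5′ to 3′. The sequence of the guide was not searched in them. Capitals mark the core promoter motifs searched on both strands, namely a TATA box (spelled TATAAA or, equally, spelled TATATA), the CCAAT box with those 5 letters and a GC box (spelled GGGCGG). The windows are chr1:164458356-164458505 on the minus strand for *Atp1b1*, chr9:96364432-96364581 on the minus strand for *Atp1b3* and chr2:164960696-164960845 on the plus strand for *Slc12a5*.
Atp1b1: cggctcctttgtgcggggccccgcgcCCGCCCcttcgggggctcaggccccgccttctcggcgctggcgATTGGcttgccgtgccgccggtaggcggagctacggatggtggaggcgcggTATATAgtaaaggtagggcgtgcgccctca
Atp1b3: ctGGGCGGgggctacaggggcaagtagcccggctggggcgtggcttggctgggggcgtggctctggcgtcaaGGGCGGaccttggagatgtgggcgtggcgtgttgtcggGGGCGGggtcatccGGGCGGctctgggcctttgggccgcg
Slc12a5: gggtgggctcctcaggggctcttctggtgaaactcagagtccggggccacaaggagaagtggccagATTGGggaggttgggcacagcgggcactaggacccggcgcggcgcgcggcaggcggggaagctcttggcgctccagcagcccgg
The *Atp1b1* window held 1 TATA box that begins 30 bases before the start, 1 CCAAT box and 1 GC box. The *Atp1b3* window held 4 GC boxes and neither of the other motifs, and the *Slc12a5* window held 1 CCAAT box alone. Of 32851 windows of this length over all RefSeq starts, 9.5% held a TATA box, 24.5% a CCAAT box and 28.6% a GC box. These matches describe letters only.

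Libraries were prepared with a QuantSeq kit, which reads the 3′ ends of polyadenylated transcripts. The deposited values are whole numbers that sum to between 999047 and 999717 per library, and were read as per-million values that the authors rounded. Their read depth is unknown, and they are not divided by gene length, so levels are compared between groups and not between genes. The targeted gene *Kcna1* had 16 in every Ctrl-dCas9A library, also in replicate 3, and 68, 47 and 65 under its guide, in the direction that the labels give. Gm42418, a gene known to collect ribosomal RNA reads, held from 15.3% to 20.2% of a library. Ctrl-dCas9A replicate 3 stood apart from its group. Over the 3263 genes that averaged 50 or more, its median absolute log2 difference was 0.24 and 0.26 to the other Ctrl-dCas9A libraries but between 0.17 and 0.23 to the Kcna1-dCas9A libraries, whereas the other two Ctrl-dCas9A libraries differed from each other by 0.12. Results are therefore also given without it. Since it was chosen for lying near the Kcna1-dCas9A libraries, leaving it out favours larger group differences. Genes that pass only without it, or also without it, gain no independent support from that.

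Group differences were tested with limma on log2(value + 1) over the 19504 genes above 0 in at least 1 library, with Benjamini-Hochberg adjustment, and fold changes on this scale understate the change of low values. At an adjusted p of 0.05, 0 of the 5 passed (limma), against 1.16% of all genes tested. Without adjustment, 2 of the 5 (*Atp1b2* and *Atp1b3*, both lower) had a p under 0.05, against 23.2% of all genes. The groups did not overlap for 3 of the 5. In *Atp1b2* and *Atp1b3* every Kcna1-dCas9A library was lower than every Ctrl-dCas9A library, as in 13.3% of all genes, and in *Atp1b1* every one was higher, as in 8.98% of all genes. With 3 libraries against 3, the exact permutation test (two-sided) cannot go below p = 0.1, the value that it gave for these 3 genes. The median log2 fold change of the 5 genes was -0.45, where the median of all genes tested was -0.02.

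*Atp1b1*, the most abundantly listed of the 5, had values of 515, 560 and 549 with the control guide, against 581, 582 and 567 with the *Kcna1* guide. The lowest Kcna1-dCas9A library lay just above the highest Ctrl-dCas9A library. The control libraries averaged 541 ± 23.5 (SD, n = 3), and the Kcna1-dCas9A libraries 577 ± 8.39 (SD, n = 3). By limma the log2 difference came to 0.09 with a standard error of 0.08, a 95% interval from -0.09 to 0.27 and an adjusted p of 0.51. The scaling of the libraries moved this value. It was 0.18 (95% interval -0.05 to 0.41) with median-of-ratios factors and 0.21 (-0.06 to 0.48) with upper-quartile factors. The last 202 bases of the *Atp1b1* gene overlap *Nme7*, a nucleoside diphosphate kinase family gene, at the end that the 3′ reads cover. *Nme7* had values of 8, 12 and 6 under the control guide and 3 in each Kcna1-dCas9A library, far below *Atp1b1*, and although the methods call the reads stranded, whether the counting used strand is not given in the sources used here, so the split of reads between both genes there is uncertain. The other 4 genes overlap no gene of the RefSeq annotation.

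*Atp1b2* measured 33, 31 and 28 in the control libraries, as opposed to 20, 15 and 24 after *Kcna1* activation. All 3 Kcna1-dCas9A libraries were lower, with replicate 2 the lowest of all. From a control mean of 30.7 ± 2.52 (SD, n = 3), the level with the *Kcna1* guide was 19.7 ± 4.51 (SD, n = 3), or 64.1% of the control mean. The limma estimate was -0.64 on the log2 scale, with a standard error of 0.19 and a 95% interval from -1.08 to -0.19. Its adjusted p was 0.0996 and its unadjusted p 0.0115 (limma), and 11.5% of all genes had a smaller p. Without Ctrl-dCas9A replicate 3 it was -0.70 (adjusted p = 0.11 from limma). *Atp1b2* passed in 3 other fits of limma, in which many more genes passed as well. Its adjusted p was 0.027 among the genes that averaged 10 or more, where 28.4% passed, 0.023 with robust variance, where 14.8% passed, and 0.04997 without Gm42418, where 9.27% passed.

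For *Atp1b3* the control libraries gave 54, 39 and 39, and those with the *Kcna1* guide 29, 34 and 32. The highest value was that of Ctrl-dCas9A replicate 1, and the other Ctrl-dCas9A libraries lay close above the Kcna1-dCas9A libraries. The mean went from 44 ± 8.66 (SD, n = 3) in Ctrl-dCas9A to 31.7 ± 2.52 (SD, n = 3) in Kcna1-dCas9A. On the log2 scale this was -0.45, with a standard error of 0.16, a 95% interval from -0.83 to -0.07 and an adjusted p of 0.15 (limma). It was -0.30 without Ctrl-dCas9A replicate 1 and -0.52 without replicate 3.

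**Figure D1:**
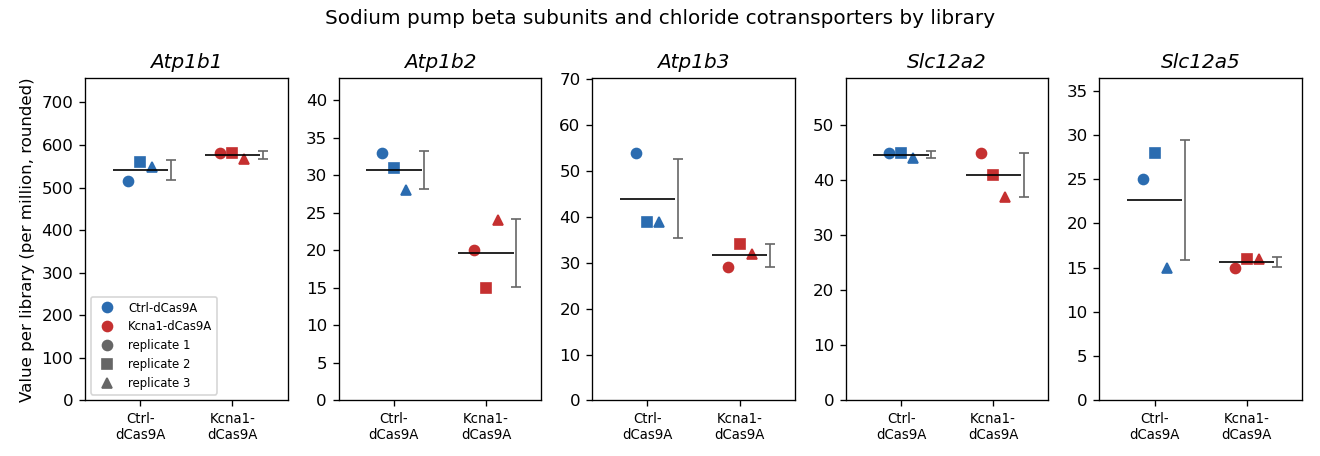
Values of the 5 genes in each library (per-million values, rounded by the authors), with Ctrl-dCas9A in blue and Kcna1-dCas9A in red and 1 marker shape per replicate number; horizontal lines are group means and the bars beside them 1 SD (n = 3). The groups do not overlap for the 3 beta subunit genes, with *Atp1b1* higher and *Atp1b2* and *Atp1b3* lower in Kcna1-dCas9A, and they overlap for *Slc12a2* and *Slc12a5*.

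*Slc12a2*, the gene of the chloride importer NKCC1, lies on chromosome 18 from 57878512 to 57946821 in the same annotation. Its control values were 45, 45 and 44, next to 45, 41 and 37 with the *Kcna1* guide. Replicate 1 of Kcna1-dCas9A equalled the highest control, so that the groups overlapped. On average the control libraries had 44.7 ± 0.577 (SD, n = 3), and those of Kcna1-dCas9A 41 ± 4 (SD, n = 3). The log2 difference of -0.13 had a standard error of 0.11, a 95% interval from -0.39 to 0.14 and an adjusted p of 0.51 (limma). It was -0.04 with median-of-ratios factors and -0.0089 with upper-quartile factors. The exact permutation test gave p = 0.4 (two-sided). Of the 5 genes, *Slc12a2* and *Atp1b1* showed the smallest differences.

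*Slc12a5*, the gene of the chloride exporter KCC2, reached 25, 28 and 15 under the control guide, compared with 15, 16 and 16 under the *Kcna1* guide. The Kcna1-dCas9A libraries were nearly equal, and the value of Ctrl-dCas9A replicate 3 fell among them. The control mean was 22.7 ± 6.81 (SD, n = 3) and that of Kcna1-dCas9A 15.7 ± 0.577 (SD, n = 3). The log2 difference was -0.46, with a standard error of 0.23, a 95% interval from -1.02 to 0.09 and an adjusted p of 0.27 (limma), and the exact permutation test gave p = 0.4 (two-sided). Its call depended on a single library. Without Ctrl-dCas9A replicate 3 the log2 difference was -0.72 with a standard error of 0.10 and an adjusted p of 0.027 (limma), and *Slc12a5* was then the 1 gene of the 5 past the threshold, which 14.2% of all genes passed in that fit. The log2 fold change was -0.29 without Ctrl-dCas9A replicate 2.

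Ratios of (value + 1) between genes of a library depend little on the total to which the library was scaled. The log2 ratio of *Slc12a5* to *Slc12a2*, which is often used to describe the balance of chloride export and import, was -0.82, -0.67 and -1.49 with the control guide, compared with -1.52, -1.30 and -1.16 with the *Kcna1* guide. The groups overlapped, again through Ctrl-dCas9A replicate 3. The group means were -0.99 ± 0.44 (SD, n = 3) and -1.33 ± 0.18 (SD, n = 3), a difference of -0.34, which ran from -0.59 without that replicate to -0.17 without Ctrl-dCas9A replicate 2. These ratios are given as descriptions with no test.

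Among the beta subunits, the log2 ratio of *Atp1b1* to *Atp1b2* was 3.92, 4.13 and 4.25 in Ctrl-dCas9A and 4.79, 5.19 and 4.51 in Kcna1-dCas9A. Every Kcna1-dCas9A library exceeded every control (4.10 ± 0.16 for the controls and 4.83 ± 0.34 for Kcna1-dCas9A, SD, n = 3), and the difference of 0.73 (1.66-fold) was larger than the SD of either group. The log2 ratio of *Atp1b1* to *Atp1b3* was 3.23, 3.81 and 3.78 in Ctrl-dCas9A and 4.28, 4.06 and 4.11 in Kcna1-dCas9A. It too was higher in every Kcna1-dCas9A library, by 0.54 on average (1.45-fold), and by 0.35 without Ctrl-dCas9A replicate 1. By contrast, the log2 ratio of *Atp1b2* to *Atp1b3* overlapped between the groups, averaging -0.49 ± 0.19 in the controls and -0.68 ± 0.39 in Kcna1-dCas9A (SD, n = 3). The separation of the ratios with *Atp1b1* follows from the values of the single genes given above and adds no evidence to them.

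**Figure D2:**
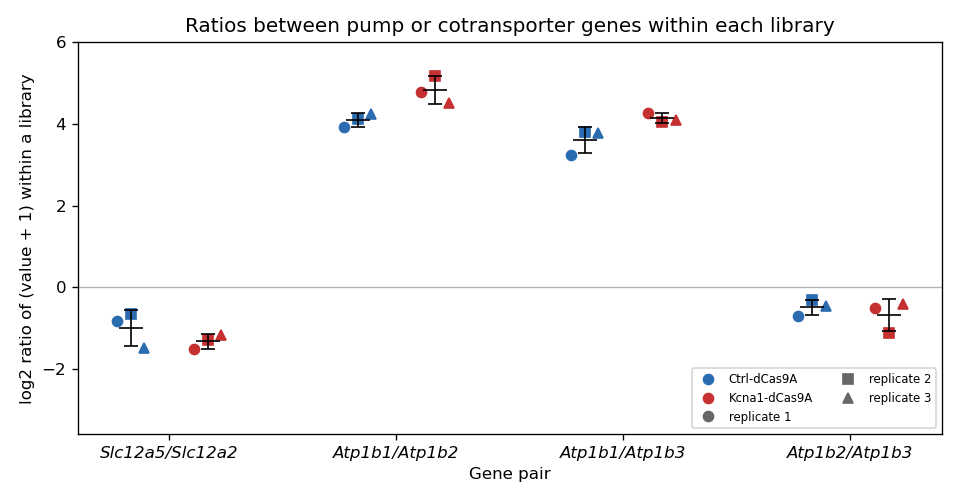
Log2 ratio of (value + 1) between 2 genes within each library for 4 gene pairs, with Ctrl-dCas9A in blue, Kcna1-dCas9A in red and 1 marker shape per replicate number; black bars are the group mean and 1 SD (n = 3). The groups are apart for *Atp1b1*/*Atp1b2* (4.10 against 4.83) and *Atp1b1*/*Atp1b3* (3.61 against 4.15) and overlap for the other pairs.

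Of 40 further genes of these pathways, 36 were above 0 in at least 1 library and none of them had an adjusted p under 0.05 from limma (lowest 0.056). Without adjustment 13 of the 36 had a p under 0.05, of which 8 were lower and 5 higher, where 23.2% of all genes had one. Their median log2 fold change was -0.0077, near the -0.02 of all genes tested. Without Ctrl-dCas9A replicate 3, 5 passed the adjusted threshold as lower and 3 as higher, where 14.2% of all genes passed. When libraries were rescaled with median-of-ratios factors, 2 passed as lower and 2 as higher, against 8.82% of all genes. Of the 5 beta subunit and cotransporter genes, 0 passed after that rescaling.

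FXYD proteins modulate the pump, and NKAIN proteins are membrane partners of its beta1 subunit. Of the 11 genes of these families, 9 were tested and 0 passed the threshold. *Fxyd6*, the highest listed, was at 256, 230 and 243 against 242, 233 and 232, with a log2 fold change of -0.04. *Nkain3* had 41, 32 and 30 with the control guide, against 23, 19 and 16 with the *Kcna1* guide (log2 fold change -0.80, adjusted p = 0.058 from limma). *Nkain4* was listed at 25, 20 and 14 against 6, 8 and 9 (-1.23, adjusted p = 0.056 from limma). Both genes were lower in every Kcna1-dCas9A library and passed after median-of-ratios rescaling (adjusted p = 0.037 and 0.021 from limma), but without Ctrl-dCas9A replicate 3 only *Nkain4* did (0.054 and 0.027). Of the 9 tested genes of this list, 3 were lower in every Kcna1-dCas9A library and 1 was higher, where 13.3% and 8.98% of all genes were. After the rescaling 8.82% of all genes passed, and without that replicate 14.2%. *Nkain2*, at 11, 15 and 8 against 5 in each Kcna1-dCas9A library, had an adjusted p of 0.068 from limma, 0.056 after that rescaling and 0.027 without Ctrl-dCas9A replicate 3. *Fxyd5* was listed at 0 in each Ctrl-dCas9A library and at 1 in each Kcna1-dCas9A library, the lowest value above 0 that whole numbers allow, so no test of it is given, although it is counted above among the higher genes at an unadjusted p under 0.05 and without Ctrl-dCas9A replicate 3.

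Of the 7 other cotransporters of the SLC12 family, the kidney genes *Slc12a1* and *Slc12a3* were listed at 0 in every library. *Slc12a4* (KCC1) had 22, 14 and 20 with the control guide, against 14, 17 and 13 with the *Kcna1* guide, and *Slc12a9* at 15, 21 and 19 against 21, 20 and 16. Both overlapped between the groups. None of the 5 tested genes of this family passed the threshold, and their log2 fold changes ran from -1.33 to 0.25. The lowest was that of *Slc12a7* (KCC4), at 3 in each Ctrl-dCas9A library against 1, 1 and 0.

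NKCC1 and KCC2 are set in opposite directions by phosphorylation through the WNK kinases and their effectors SPAK (*Stk39*) and OSR1 (*Oxsr1*). The kinases and partners were listed at summed values of 586 to 633 in Ctrl-dCas9A and 617 to 730 in Kcna1-dCas9A, and 0 of 10 passed the threshold. *Wnk1* was listed at 157, 147 and 185 against 220, 179 and 206, overlapping between the groups (log2 fold change 0.31, adjusted p = 0.19 from limma, 0.075 after median-of-ratios rescaling and 0.079 without Ctrl-dCas9A replicate 3). *Epb41l1*, which encodes the cytoskeletal protein 4.1N, was listed at 161, 154 and 206 against 242, 215 and 279. It was higher in every Kcna1-dCas9A library (log2 fold change 0.50, adjusted p = 0.10 from limma) and passed both after median-of-ratios rescaling and without Ctrl-dCas9A replicate 3 (adjusted p = 0.030 and 0.041 from limma). Of the 10 genes of this list, 2 were lower and 1 was higher in every Kcna1-dCas9A library, where 13.3% and 8.98% of all genes were. At an unadjusted p under 0.05 from limma 3 were higher and 2 lower, where 23.2% of all genes had one. *Stk39* had 54, 53 and 66 against 71, 66 and 84, overlapping between the groups (log2 fold change 0.35, adjusted p = 0.19 from limma). *Cab39*, a scaffold that activates SPAK and OSR1, had 66, 69 and 36 with the control guide, against 31, 25 and 34 (log2 fold change -0.86, adjusted p = 0.11 from limma, 0.054 after that rescaling and 0.023 without Ctrl-dCas9A replicate 3). *Neto2*, a KCC2 partner, had 73, 67 and 57 against 46, 52 and 41 (-0.49, adjusted p = 0.092 from limma, 0.11 after rescaling and 0.048 without that replicate).

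Other routes for chloride and bicarbonate did not pass either, with 0 of 12. *Clcn3*, an intracellular chloride-proton exchanger, was listed at 294, 305 and 251 against 236, 224 and 211, lower in every Kcna1-dCas9A library (log2 fold change -0.34, adjusted p = 0.11 from limma, 0.21 after median-of-ratios rescaling and 0.033 without Ctrl-dCas9A replicate 3). *Clcn4*, of the same family, was listed at 220, 213 and 214 against 217, 193 and 210, with overlap. *Slc4a3*, the anion exchanger AE3, was listed at 71, 64 and 86 against 109, 95 and 107. It was higher in every Kcna1-dCas9A library (0.50, adjusted p = 0.081 from limma, 0.028 after that rescaling and 0.031 without that replicate).

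**Figure D3:**
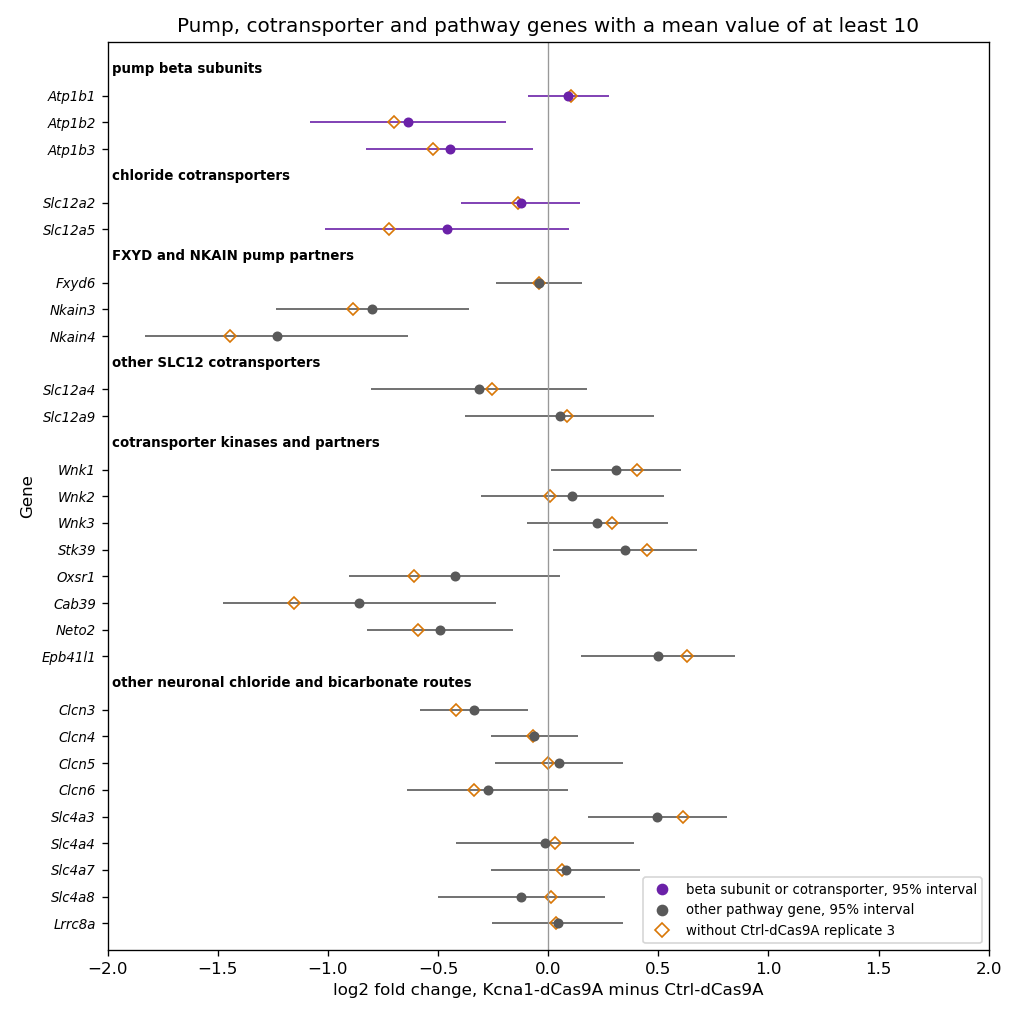
Log2 fold change (Kcna1-dCas9A minus Ctrl-dCas9A, on log2(value + 1)) of the 5 genes (purple) and of the pathway genes averaging 10 or more (grey), with 95% intervals from limma; open diamonds are the values without Ctrl-dCas9A replicate 3. *Slc12a5* moves from -0.46 to -0.72 when that library is left out, while *Atp1b1* and *Slc12a2* stay near 0, at 0.09 and -0.13 with all libraries.

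The cultures held neuronal and glial transcripts, and in bulk RNA fewer cells of a type cannot be told apart from less RNA per cell. All 10 pan-neuronal, 8 excitatory and 8 inhibitory neuron markers were listed above 0, led by *Tubb3*, *Stmn2* and *Map2*, as the label of primary neurons has it. The summed pan-neuronal value was 7222 to 8092 in Ctrl-dCas9A and 8135 to 9592 in Kcna1-dCas9A, with 0 of 10 past the threshold and 5 log2 fold changes on either side of 0. After median-of-ratios rescaling 2 passed as higher and 1 as lower, where 8.82% of all genes passed. Without Ctrl-dCas9A replicate 3, 4 passed as higher and 1 as lower, where 14.2% of all genes did. The higher sum came from *Tubb3*, at 1862, 1752 and 2605 against 3855, 3221 and 4591. The other 9 markers summed to 5360, 5616 and 5487 with the control guide, against 5284, 4914 and 5001, lower in every Kcna1-dCas9A library. Excitatory markers, led by *Neurod2* and *Grin2b*, summed to 1695 to 1852 and to 1593 to 1751, and inhibitory markers, led by *Sst* and *Dlx1*, to 279 to 312 and to 269 to 317. Both sums overlapped between the groups and 0 markers passed the threshold, but single genes went both ways. In every Kcna1-dCas9A library *Slc17a7* and *Camk2a* (excitatory) and *Npy* (inhibitory) were higher, as in 8.98% of all genes. *Neurod6* (excitatory) and *Gad1*, *Slc32a1* and *Dlx2* (inhibitory) were lower, as in 13.3%. After median-of-ratios rescaling 2 excitatory markers passed as higher, and 1 inhibitory marker as higher and 1 as lower, where 8.82% of all genes passed. Astrocyte markers, led by *Slc1a2* and *Slc1a3*, were present as well, and their sum was lower in every Kcna1-dCas9A library. All 10 were above 0, and their summed value was 961 to 1069 in Ctrl-dCas9A and 702 to 718 in Kcna1-dCas9A. Of their log2 fold changes 9 of 10 were below 0, though *Gfap* (-0.02) and *Aldh1l1* (-0.0062) were close to 0, and *S100b* was at 0.32. In 6 of the 10 every Kcna1-dCas9A library was lower, as in 13.3% of all genes. *Aqp4*, *Aldoc* and *Sox9* passed the threshold as lower, where 1.16% of all genes passed. No gene passed with the replicate number as a block, or when any library other than Ctrl-dCas9A replicate 3 was left out. *Atp1b2*, which is known from astrocytes, was also lower in every Kcna1-dCas9A library, and the part of astrocytes in its difference was not tested. *Slc12a5*, which is known from neurons, had its lowest control value in Ctrl-dCas9A replicate 3. That library also had the lowest astrocyte sum and the highest excitatory sum of its group. In the excitatory sum *Neurod2* alone had 558, 560 and 680 in Ctrl-dCas9A replicates 1, 2 and 3. The pan-neuronal sum of replicate 3 was the highest of its group with *Tubb3* but not without it. The part of neurons or astrocytes in the *Slc12a5* values was not tested.

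Oligodendrocyte lineage markers summed to 72 to 104 in Ctrl-dCas9A and to 47 to 51 in Kcna1-dCas9A. The myelin genes *Mog* and *Mag* were listed at 0 throughout. *Olig2* passed the threshold as lower (adjusted p = 0.0497 from limma), where 1.16% of all genes passed. Its call was lost with the replicate number as a block, and when any library other than Ctrl-dCas9A replicate 3 was left out. *Olig1*, which gave the largest part of the sum, had 59, 49 and 34 against 20, 24 and 15. The myelin gene *Mbp* went the other way, at 3, 3 and 2 against 7, 4 and 7 (log2 fold change 0.91, adjusted p = 0.11 from limma), and *Cnp* had a log2 fold change of 0.50. Dividing cell markers, led by *Top2a* and *Birc5*, summed to 125 to 132 and to 75 to 77, with all 8 log2 fold changes below 0 and 0 past the threshold. In 7 of the 8 every Kcna1-dCas9A library was lower, as in 13.3% of all genes. Past the threshold as lower were 2 after median-of-ratios rescaling (8.82% of all genes) and 1 without Ctrl-dCas9A replicate 3 (14.2% of all genes). Microglia markers summed to 22 to 25 and to 53 to 72, led by *C1qa* and *Aif1*, where *C1qa* passed as higher (adjusted p = 0.0486 from limma) and *Tmem119* and *P2ry12* were listed at 0. The *C1qa* call was lost in the same fits as that of *Olig2*. After median-of-ratios rescaling 4 microglia markers passed as higher, where 8.82% of all genes passed. *C1qc* had a log2 fold change of -0.19. *Slc12a2*, which is known from glia and progenitors as well as neurons, overlapped between the groups beside these lists, and their part in its values was not tested. Markers of choroid plexus and vessels were low, at sums of 31 to 47 and 31 to 34, led by *Ttr*, with *Kl* listed at 0.

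**Figure D4:**
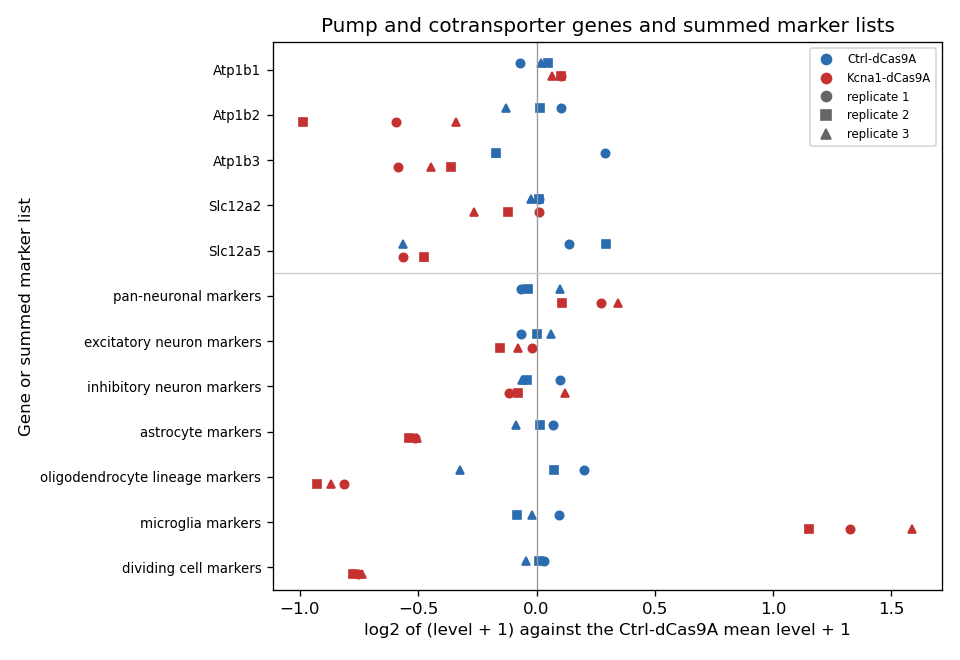
Log2 of each library's level against the mean level of Ctrl-dCas9A (1 added to both) for the 5 genes and the summed marker lists, with Ctrl-dCas9A in blue, Kcna1-dCas9A in red and 1 marker shape per replicate number. *Atp1b2*, *Atp1b3* and the astrocyte, oligodendrocyte lineage and dividing cell sums lie to the left of every Ctrl-dCas9A library in Kcna1-dCas9A, while *Atp1b1* and the pan-neuronal and microglia sums lie to the right of every one. Without *Tubb3* the pan-neuronal sum is lower in every Kcna1-dCas9A library.

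Profiles over the 6 libraries were compared by the root-mean-square difference of log2(value + 1), each gene centred on its own mean, with every gene that averaged 50 or more. The nearest to *Atp1b1* were *Mesdc2* (0.02) and *Dync1i2* (0.02), and the nearest to *Slc12a2* were *Ppm1g* (0.04) and *Dclk1* (0.04), which all varied little. The nearest to *Atp1b2* were mt-Rnr2 (0.09) and *Snx1* (0.11), and the nearest to *Atp1b3* were *Tomm7* and *Snx10* (0.06 each). *Fth1* (0.05) and *Tmco1* (0.09) were nearest to *Slc12a5*. Among the 5 genes themselves the closest pair was *Atp1b1* and *Slc12a2* (0.14) and the farthest *Atp1b1* and *Atp1b2* (0.42).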

How the data were processed

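QuantSeq 3′ libraries of 3 Ctrl-dCas9A and 3 Kcna1-dCas9A neurons were used, grouped by their sample titles. The submitters' processing notes name STAR 2.7, featureCounts, DESeq2 and mm10, whereas the methods of the study give Bowtie2 and NCBI37/mm9. Of the 50508 symbols, 34692 are in RefSeq for GRCm38.p6. Deposited files hold a whole-number score per gene, read from its totals as a per-million value rounded by the authors. The scaling and the strand setting of the counting are not given in the sources used here. Rounded per-million values are not counts, so no count model was used.

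Values were tested with limma 3.58.1 in R 4.3.3 (lmFit, eBayes with an intensity trend) on log2(value + 1), with the guide as the only factor, over genes above 0 in at least 1 library. The fit was also run on simulated data with known changes, and the outcome of that run is not given here. Genes, lists and tests were chosen with earlier results of these data known. In the text, pathway and marker genes were named if past the threshold or among the 2 highest of their list (only *Ttr* of the choroid plexus and vascular list, where the next are tied), and defining markers also if at 0 in every library. *Cab39*, *Cnp*, *Fxyd5*, *Mbp*, *Neto2*, *Nkain2*, *Nkain4*, *Slc12a1*, *Slc12a3*, *Slc12a7*, *Slc4a3*, *Map2*, *Nme7* and Gm42418 were named after their values were seen. So were *Aldh1l1*, *C1qc*, *Camk2a*, *Dlx2*, *Gad1*, *Gfap*, *Neurod6*, *Npy*, *S100b*, *Slc17a7*, *Slc32a1* and *Stk39*. Sequence is from RefSeq promoter windows, and *Atp1b2* and *Slc12a2* are named only. A further pathway list is not reported here. The fit was repeated with a pseudocount of 0.1, low-value filters, rescalings, other variance models, the replicate block and without each library in turn. The fit without Gm42418 was added after seeing the data.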

Additional observations from a re-analysis of the deposited data

How the results depend on the processing

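All 5 genes kept the direction of their difference under the 10 alternatives, of 15, that could change its estimate; the other 5 change only the variance or the genes tested. *Atp1b2* passed the threshold at -0.64 with a minimum mean value of 10 (adjusted p = 0.027 from limma) and with robust variance (0.023), and at -0.65 without Gm42418 (0.04997), an alternative chosen after seeing the data. Its range without each library was -0.79 to -0.46, against 0.06 to 0.12 for *Atp1b1*, -0.52 to -0.30 for *Atp1b3*, -0.19 to -0.06 for *Slc12a2* and -0.72 to -0.29 for *Slc12a5*. Over all 15 alternatives *Atp1b1* ran from 0.06 to 0.21 and *Slc12a2* from -0.19 to -0.0089, with their highest values under upper-quartile factors, which moved the median of genes averaging 10 or more by 0.11 (median-of-ratios factors by 0.08). The difference in the *Atp1b2*/*Atp1b3* ratio ran from -0.33 to 0.036, and reversed to 0.036 without Kcna1-dCas9A replicate 2. Over all genes, 226 passed in the fit reported, 627 with a pseudocount of 0.1, 1543 and 2289 with a minimum mean value of 1 and 10, 1721 with median-of-ratios factors, 2058 with upper-quartile factors, 2884 with robust variance and 1808 without Gm42418. Without each library the count ran from 0 to 2711, and it was 0 without any library other than Ctrl-dCas9A replicate 3. Pathway genes past the threshold numbered 2 higher and 2 lower with median-of-ratios factors, and 0 to 3 higher and 0 to 5 lower without each library. With the replicate number as a block, 0 genes passed, and the adjusted p of *Atp1b2* was 0.195 at a log2 difference of -0.64. The deviations of same-numbered libraries correlated at 0.020, 0.216 and 0.249, and Ctrl-dCas9A replicate 1 correlated best with Kcna1-dCas9A replicate 2 (0.20), so a pairing by number was not established. Apart from construction (fewer genes or libraries), the cause of these changes was not tested. A DESeq2 fit was not run, since the values are not counts. Values of 15 to 54, rounded to whole numbers and of unknown depth, limit the precision of all but *Atp1b1*.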
